A study of Mus musculus with 24 samples.

Results

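The response to rosiglitazone (RSG) that is left in macrophages with a floxed Pparg allele over a null allele is described here from 12 arrays, of 24 in the series. The 12 were chosen by their genotype label, PPARg fl/-LysCre: 6 cultures with RSG were set against 6 with vehicle, within cultures without IL-4 and within cultures with IL-4, and both differences were then averaged. Bone marrow cells of C57Bl/6 mice had been grown for 10 days with M-CSF at 20 ng/ml, the cytokine that drives macrophage differentiation, in all groups. Control cultures had no further cytokine, and the others had 20 ng/ml IL-4. RSG was given at 1 µM and the vehicle was a mixture of DMSO and ethanol. Mice 4, 5 and 6 were Pparg fl/- LysCre, and each gave 1 culture to each of the 4 conditions, so that every condition had 3 arrays. The 12 arrays of mice 1, 2 and 3, which were Pparg+/- LysCre, had the same 4 conditions and serve as reference. Both genotypes therefore carried 1 null allele and the LysCre transgene, in which Cre is driven by the lysozyme gene of myeloid cells. In fl/- cells the floxed allele is lost cell by cell as Cre is made, and the share of cells that still had it cannot be read from these arrays.

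PPARγ is a nuclear receptor that binds DNA together with a retinoid X receptor and turns on genes of fatty acid uptake, storage and oxidation when a ligand is bound. RSG, a thiazolidinedione, is a synthetic agonist of it. PPARα and PPARδ are encoded by other genes and bind the same kind of response element, so many target genes are shared among the 3 receptors. In macrophages PPARγ is known for its induction by IL-4 and for the genes Fabp4, Cd36 and Angptl4.

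The deposited values were ratios, in which 1 stands for the median of most probe sets over the arrays, so a ratio says how far a probe set lies from its own middle and not how bright it is. A probe set was called when limma gave an adjusted p under 0.05 together with a change of at least 1.5-fold. The median standard error of the averaged response was 0.24 on the log2 scale. The 95% interval of that response lay inside 1.5-fold in either direction for 44.5% of the probe sets and inside 2-fold for 57.9%, and for the others it reached beyond these limits. Of the 12 arrays, the vehicle culture with IL-4 of mouse 4 stood apart: its spread around the group means was the highest, with an SD of 0.726 on the log2 scale against 0.603 to 0.682 on the other 23 arrays. RSG over vehicle of mouse 4 with IL-4 had a median of 0.16 (log2) over all probe sets, against -0.15 to 0.06 for the other fl/- pairs. Macrophage markers were measured for 11 genes, and their mean log2 ratio lay between 0.26 and 0.53 with RSG and between 0.19 and 0.72 with vehicle in control cultures. Neutrophil markers ranged from 0.29 to 1.18 with RSG and from 0.44 to 1.16 with vehicle in control cultures. Stromal cell markers ranged from 0.20 to 1.24 and from 0.42 to 1.58, respectively. In IL-4 cultures macrophage markers ranged from -0.45 to 0.21 with RSG and from -0.29 to 0.18 with vehicle. Neutrophil markers there ranged from -2.89 to -2.45 with RSG and from -2.91 to -2.34 with vehicle. For stromal cell markers these ranges were -1.07 to -0.95 and -1.25 to -0.72. None of the markers of these 3 cell types was called between RSG and vehicle in fl/- cells. For the averaged response only 0.0169% of all genes were called higher and 0.0% lower, so nothing is read from this absence. In such bulk RNA, fewer cells that express a gene and less of its RNA per cell cannot be told apart.

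Pparg itself (1420715_a_at) had ratios of 0.578, 0.703 and 1.09 in control vehicle cultures of the fl/- mice and of 0.607, 0.901 and 1.12 with RSG. With IL-4 these were 1.86, 2.91 and 3.16 with vehicle and 1.93, 2.41 and 2.81 with RSG. Vehicle and RSG cultures overlapped in both settings, and the averaged log2 change was 0.01 ± 0.18 (SE). The Pparg+/- cultures had 1.46 to 2.02 with IL-4 and vehicle, below 2 of the 3 fl/- cultures. The position of these probes with respect to the floxed exons is not given in the sources used here, and the probe set is therefore no check of the deletion, which the study assessed by PCR. The other receptors did not pass the test either: Ppard (1439797_at) changed by 0.13 ± 0.18 and Ppara (1457721_at) by -0.04 ± 0.36 on the log2 scale.

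In fl/- cells 4 probe sets of 43349 were called for the averaged response, 3 higher and 1 lower, which is 0.00923% of those tested (0.00692% higher, 0.00231% lower). The 3 that rose belonged to Angptl4, Slco2b1 and Mast4. Angptl4 encodes a secreted inhibitor of lipoprotein lipase, Slco2b1 an organic anion transporter of the cell membrane and Mast4 a kinase associated with microtubules. The probe set that fell (1431439_at) has no gene symbol in the annotation. Its log2 change was -0.39 without IL-4 (unadjusted p = 0.503) and -4.91 with it, so the averaged fall rests on the IL-4 cultures. In all, 2012 probe sets had an unadjusted p under 0.05, or 4.64%. The same contrast in Pparg+/- cells called 85 probe sets, 0.196%, of which 47 (0.108%) were higher and 38 (0.0877%) lower. Both counts rest on all mice: without mouse 4, 5 or 6 there were 0, 1 and 0 calls in fl/- cells, and without mouse 1, 2 or 3 there were 3, 0 and 0 in Pparg+/- cells. Each mouse gave all 4 cultures, and with the mouse as a block 6 probe sets were called in fl/- cells, all higher, and 125 in Pparg+/- cells (65 higher, 60 lower). Of these, 3 were also called without the block. The block added Aspa, Serpinb6b and another Slco2b1 probe set, and the unnamed probe set was no longer called (adjusted p = 0.0709).

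Angptl4 (1417130_s_at) had ratios of 0.586, 0.692 and 0.45 in mice 4, 5 and 6 without IL-4 and with vehicle. With RSG these became 2.53, 1.33 and 1.12. In IL-4 cultures the vehicle ratios were 0.0684, 0.412 and 0.21 and the RSG ratios 6.47, 2.23 and 3.29. Every RSG culture was above every vehicle culture in both settings, and mouse 4 had the highest RSG value in each. The averaged change was 7.41-fold, with a 95% interval of 4.48 to 12.2 (log2 2.89 ± 0.35, adjusted p = 0.00469). Pparg+/- cells had 9.08-fold for the same contrast, and the difference of both log2 changes was -0.29, with an interval of -1.32 to 0.73. The Pparg+/- cultures with IL-4 and RSG had ratios of 12.7, 10.1 and 8.65, all above those of fl/- cells, while with vehicle they had 0.701, 0.474 and 0.633. A further Angptl4 probe set (1453410_at) was higher with RSG in 6 of 6 pairs but did not pass (log2 2.39 ± 0.64, adjusted p = 0.711). Without the vehicle array of mouse 4 that stood apart, the change of the called probe set was 2.54 (log2, adjusted p = 0.0894), and without mouse 4 altogether 2.16 (adjusted p = 0.0972). Without mouse 6 it was 3.01 (adjusted p = 0.421).

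Slco2b1 (1454777_at) lay at 0.657, 0.461 and 0.726 in control vehicle cultures and at 1.09, 0.996 and 1.15 with RSG. With IL-4 it lay at 0.158, 0.187 and 0.27 with vehicle and at 0.559, 0.724 and 0.931 with RSG. RSG and vehicle cultures did not overlap in either setting, and the 3 mice moved by similar amounts (1.58 to 2.16-fold without IL-4, 3.44 to 3.87-fold with it). The averaged change was 2.54-fold (1.91 to 3.38, adjusted p = 0.0421). In Pparg+/- cells the log2 change of this probe set was 0.69, and the difference between genotypes, 0.66 higher in fl/- cells, did not pass (unadjusted p = 0.0293, adjusted p = 1.0). With IL-4 and vehicle the fl/- ratios were all below those of Pparg+/- cells, which were 1.33, 0.841 and 1.0. A second probe set of the gene (1433933_s_at) was 3.91-fold higher with RSG (2.38 to 6.43), with adjusted p = 0.152, or 0.00364 with the mouse as a block. Another (1458171_at) went the other way in fl/- cells, at -1.57 ± 0.38 (log2, adjusted p = 0.495), and had 1.43 in Pparg+/- cells. The difference, fl/- minus Pparg+/-, was -0.24 for 1433933_s_at and -3.00 for 1458171_at (unadjusted p = 2.17e-05, adjusted p = 0.622). The probe sets of Slco2b1 thus disagree, also in the direction of the difference between genotypes. The call of 1454777_at was lost when any 1 of the 3 fl/- mice was left out (adjusted p 0.0972 to 0.303).

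Mast4 (1439318_at) had 0.519, 0.733 and 0.779 with vehicle and 0.888, 1.55 and 1.48 with RSG in control cultures. In IL-4 cultures it had 0.778, 0.812 and 0.817 with vehicle and 1.79, 1.81 and 1.66 with RSG. The groups did not overlap, and the pairs of single mice ranged from 1.71 to 2.30-fold. The averaged change was 2.04-fold (1.61 to 2.57, adjusted p = 0.0488). In Pparg+/- cells the log2 change was 0.08, and the difference of 0.94 (0.47 to 1.42) had an unadjusted p of 0.000572 and an adjusted p of 0.680. The other Mast4 probe sets did not pass in fl/- cells, with log2 changes from -1.43 to 1.22. The call was lost without mouse 4, 5 or 6 (adjusted p 0.0972 to 0.435), without the array that stood apart (adjusted p = 0.142) and when arrays were centred on their medians (adjusted p = 0.0687).

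**Figure D1:**
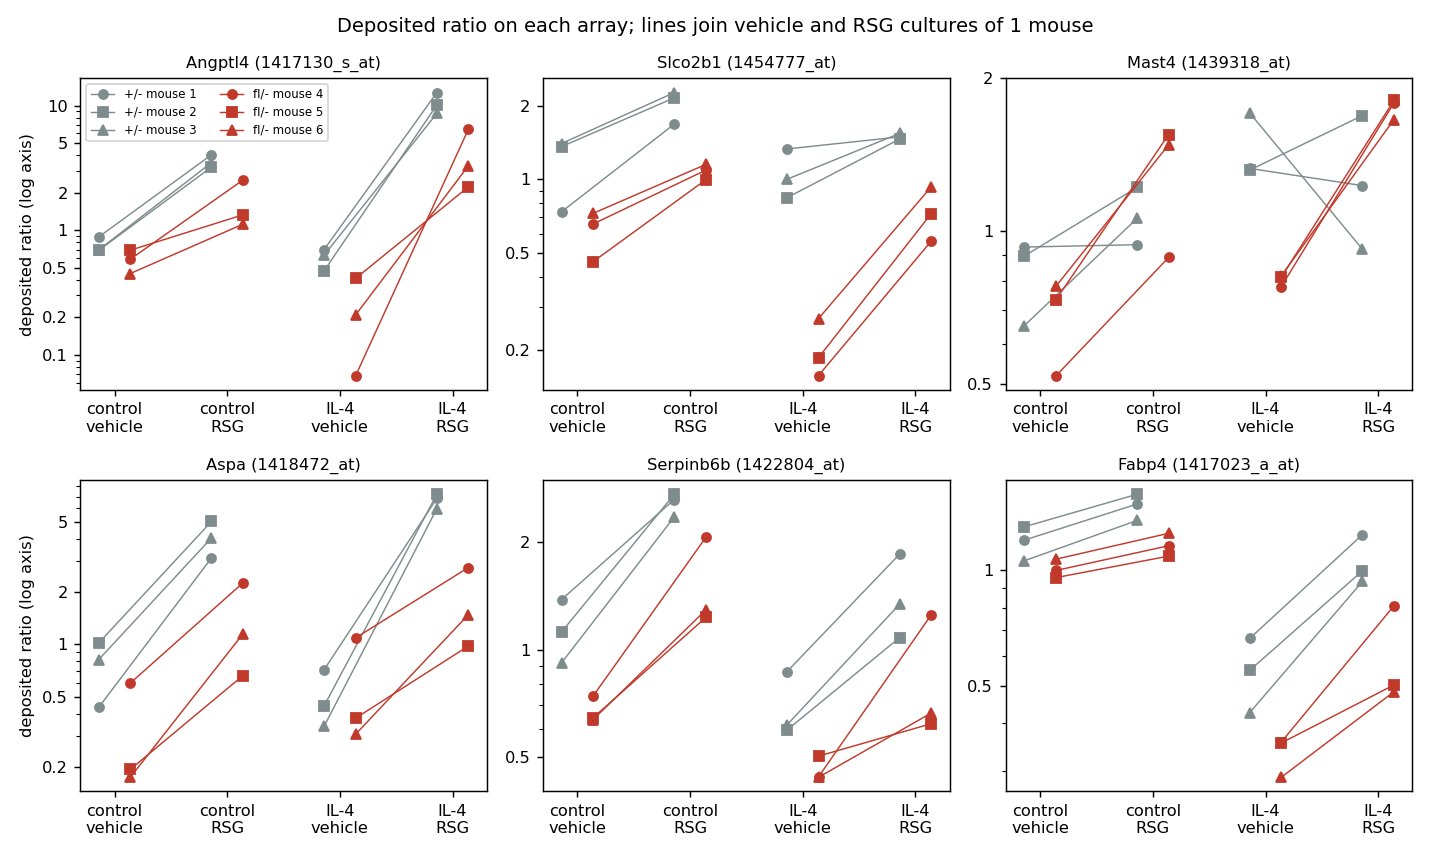
Deposited ratio (log axis) of 6 probe sets on each array, by culture; red points are the fl/- mice and grey points the Pparg+/- mice, and each line joins the vehicle and the RSG culture of 1 mouse. All 6 fl/- lines go up in each panel, and Angptl4 spans 0.0684 to 6.47 in fl/- cells with IL-4.

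Further genes of small p did not pass the adjustment in the fit without the block. Aspa (1418472_at), aspartoacylase, which splits N-acetylaspartate into acetate and aspartate, had vehicle ratios of 0.601, 0.193 and 0.174 and RSG ratios of 2.25, 0.664 and 1.15 in control cultures. With IL-4 it had 1.09, 0.379 and 0.307, and 2.75, 0.979 and 1.48 with RSG. Mouse 4 was highest in all 4 conditions, which made the groups of IL-4 cultures overlap although all 6 pairs were higher with RSG. The averaged change was 3.72-fold (2.12 to 6.56), with adjusted p = 0.338, or 0.00997 with the mouse as a block. Serpinb6b (1422804_at), an intracellular serine protease inhibitor, had 0.741, 0.644 and 0.637 with vehicle and 2.06, 1.23 and 1.29 with RSG in control cultures. In IL-4 cultures it had 0.44, 0.503 and 0.439 with vehicle and 1.25, 0.62 and 0.664 with RSG. It did not overlap in either setting, and the change was 1.96-fold (1.51 to 2.56) with adjusted p = 0.293, or 0.0423 with the block.

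Ear3 (1422412_x_at), of the ribonuclease family of eosinophils and macrophages, was at or near the lowest ratio in the table, 0.01, in the control vehicle cultures, so its fold there depends on that floor. With IL-4 it had 1.47, 1.74 and 2.36 with vehicle and 7.36, 3.92 and 4.75 with RSG, and all RSG cultures were above. The averaged log2 change was 2.31 ± 0.47 (adjusted p = 0.338) with that floor and 1.19 (adjusted p = 0.913) with a floor of 0.05. Its sequence is close to that of other Ear genes, which the probe set may also detect. Lefty2 (1436227_at), a secreted TGF-β family antagonist, had a log2 change of 2.73 ± 0.53 (adjusted p = 0.306). F13b (1419131_at), a subunit of coagulation factor XIII, had 2.93 ± 0.59 (adjusted p = 0.313). Hdgfl3 (1450924_at) was at -0.84 ± 0.17 (adjusted p = 0.313) and Spatc1l (1456866_x_at) at -2.15 ± 0.42 (adjusted p = 0.306). These 4 had the same sign in 6 of 6 fl/- pairs. Of all probe sets 1.49% were higher and 1.28% lower in 6 of 6. The choice of these 4 by small p on the same arrays favours such agreement, so it adds no support. Further probe sets of Hdgfl3 were at 0.45 ± 0.24 and -0.19 ± 0.65 and that of Spatc1l at 0.68 ± 0.83, and none of them passed. In Pparg+/- cells Lefty2 was at -0.59, F13b at -1.09, Hdgfl3 at -0.21 and Spatc1l at 0.03, and none of these differences between genotypes passed (adjusted p 0.622 to 0.994).

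Apart from Angptl4, none of the listed target genes of the receptors passed the test in fl/- cells. Fabp4, a fatty acid binding protein of adipocytes and macrophages, is measured by 4 probe sets. The 1 with the smallest spread (1417023_a_at) had 1.0, 0.958 and 1.07 in control vehicle cultures and 1.16, 1.09 and 1.25 with RSG. With IL-4 these were 0.357, 0.355 and 0.289 with vehicle and 0.809, 0.503 and 0.483 with RSG. The groups did not overlap in either setting, but the change of 1.42-fold (1.13 to 1.80) did not pass (unadjusted p = 0.00538, adjusted p = 0.904). The other 3 Fabp4 probe sets were at 0.09, 0.45 and 0.62 (log2). In Pparg+/- cells the first was at 0.64 and was not called (adjusted p = 0.146). Called there were 1424155_at, at 1.17 (adjusted p = 0.0367), and 1425809_at, at 0.85 (adjusted p = 0.0366). For the first the difference between genotypes was -0.13, with an interval of -0.61 to 0.35. It was -0.54 (-1.22 to 0.14) for 1424155_at and -0.02 for 1451263_a_at. For 1425809_at the difference was larger, -0.76 (-1.26 to -0.27, unadjusted p = 0.00465, adjusted p = 0.861). The probe sets of Fabp4 thus do not give the same account of how much of its response was left.

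Plin2 (1448318_at), a coat protein of lipid droplets, had 0.922, 0.745 and 0.825 with vehicle and 1.38, 1.01 and 1.2 with RSG in IL-4 cultures. Those groups did not overlap, whereas the control cultures did (0.717 to 0.998 against 0.882 to 1.01). The averaged change was 0.31 ± 0.09 (log2, adjusted p = 0.874), and in Pparg+/- cells it was 0.32. Cd36, a scavenger receptor and fatty acid transporter, had 0.18 to 0.23 in its 3 probe sets, and all 6 pairs were higher with RSG for each. Cpt1a, which passes long-chain fatty acids to mitochondria, had 0.29 to 0.38 in 3 probe sets, the smallest unadjusted p being 0.011. None of these passed. Hilpda, a lipid droplet protein, had 0.24 ± 0.20, and Lpl, lipoprotein lipase, 0.07 and 0.14 in its probe sets. Pdk4, a kinase that inhibits pyruvate dehydrogenase, had 0.17 ± 0.57. Its ratios in fl/- cells with IL-4 ranged from 0.0651 to 0.6 with vehicle and from 0.119 to 0.546 with RSG, so the arrays give no usable estimate for it. Scd1, the stearoyl-CoA desaturase, was at 0.06 ± 0.24 (1415964_at) in fl/- cells. In Pparg+/- cells it was at 1.11, which did not pass either (adjusted p = 0.0705). The difference of -1.05 (-1.77 to -0.33) had an unadjusted p of 0.00664 and an adjusted p of 0.890. A second Scd1 probe set (1415965_at) was at -0.37 ± 0.26 in fl/- cells and at 0.50 in Pparg+/- cells (adjusted p = 0.705).

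**Figure D2:**
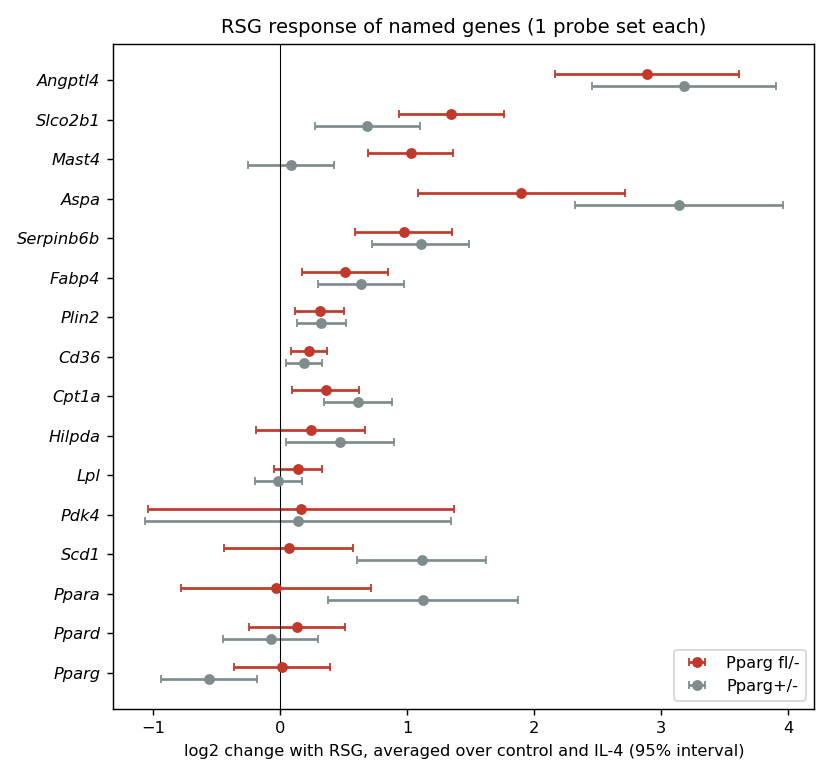
Log2 change with RSG, averaged over control and IL-4 cultures, for 16 named genes, with 95% intervals; red is fl/- and grey is Pparg+/-. Angptl4 is at 2.89 in fl/- cells and 3.18 in Pparg+/- cells, whereas Scd1 is at 0.06 and 1.11, neither of which was called.

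Across the gene lists, 1 probe set stood for each gene, the one with the smallest spread, and all 17737 genes served as background. Of all genes, 0.0169% were called higher and 0.0% lower in fl/- cells, and 2.62% and 1.94% had an unadjusted p under 0.05 in either direction, with a median log2 change of 0.007. Of 24 target genes shared by the PPARs, 1 was called (Angptl4) and 6 had an unadjusted p under 0.05 and were higher, with 0 lower, and the median was 0.16. The 5 beside Angptl4 were Plin2, Cpt1a, Acaa2, Hadhb and Ech1. The last 3 are enzymes of fatty acid β-oxidation, with log2 changes of 0.25, 0.25 and 0.20. Of 22 target genes of PPARγ in adipocytes and macrophages, 0 were called and 6 had an unadjusted p under 0.05, all higher (Fabp4, Cd36, Nr1h3, Adipoq, Pnpla2 and Mgll), with a median of 0.16. Pnpla2 and Mgll, lipases of triglyceride breakdown, were at 0.31 and 0.54. Adipoq, the adipocyte hormone adiponectin, was at 1.91 ± 0.60 (adjusted p = 0.904). Of 6 adipocyte markers, 3 were measured, and their mean log2 ratio ranged from -0.04 to 0.97 with RSG and from -1.39 to 0.17 with vehicle in control cultures, and from -2.16 to 0.77 and -1.23 to 0.17 with IL-4. Their part in the values above was not tested.

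Fatty acid oxidation had 4 of 27 genes with an unadjusted p under 0.05, all higher, and a median of 0.10. These were Cpt1a, Acaa2, Hadhb and Ech1, which the list of shared PPAR targets also holds. LXR targets and cholesterol efflux had 3 of 14, also higher (Nr1h3, which encodes LXRα, Lpcat3, which remodels phospholipids, and Pltp, which transfers them), and a median of 0.17. Scavenger receptors and genes of apoptotic cell uptake had 4 of 20, all higher (Cd36, Scarb2, Mertk and Axl), and a median of 0.08. Nr1h3 and Cd36 are also counted among the PPARγ targets above. Fatty acid synthesis had 0 of 17 and cholesterol biosynthesis 1 of 20. Proteins other than PPARγ that thiazolidinediones are known to bind had 0 of 4, antioxidant genes of the NRF2 type 0 of 16, and genes of the amino acid and unfolded protein response 1 of 22, which was lower. Inflammatory genes had 2 of 25, both lower: Il6 at -2.42 ± 0.95 and Ptgs2, the inducible cyclooxygenase, at -0.73 ± 0.33. Interferon-stimulated genes had 0 of 24 and a median of 0.09. In Pparg+/- cells 4 of these 24 had an unadjusted p under 0.05, all lower, against 4.75% of all genes there, and the median was -0.53. For the difference between genotypes 0 of the 24 had one, so no difference is read from these counts. In Pparg+/- cells fatty acid oxidation had 12 of 27 and cholesterol biosynthesis 8 of 20, all higher, against 627 of 17737 genes. Their differences, fl/- minus Pparg+/-, had 4 and 0, the 4 negative, against 354 negative ones of all genes. No gene of the lists other than Angptl4 was called in fl/- cells.

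The 85 probe sets called in Pparg+/- cells were then read in fl/- cells, with which they share no array. They were chosen by their change in Pparg+/- cells, which overstates that change, so a smaller value in fl/- cells is partly set by the choice. The spread was estimated over all 24 arrays, which favours probe sets of little spread in both genotypes. The 47 higher probe sets stand for 35 genes and 5 probe sets without a single symbol. The 38 lower ones stand for 33 genes and 2 such probe sets, so some genes are counted more than once below. Of the 47 probe sets that were higher in Pparg+/- cells, 45 were above 0 in fl/- cells, or 95.7%, against 52.7% of all probe sets. An unadjusted p under 0.05 with the same sign was found for 37 (78.7%), against 2.51% of all. With the spread taken from the 12 fl/- arrays alone it was found for 27, against 2.06% of all. In 25 of the 47 all 6 fl/- pairs were higher with RSG, against 1.49% of all, and in 15 the RSG cultures lay above the vehicle cultures in both settings without overlap, against 0.254% of all. Of the 47, Angptl4 alone was called in fl/- cells without the block, and 4 were with it (Angptl4, Aspa, Serpinb6b and Slco2b1 1433933_s_at). The median log2 change of the 47 was 0.50 in fl/- and 1.01 in Pparg+/- cells. All 47 were smaller in fl/- cells, and 28 of the differences had an unadjusted p under 0.05, against 4.85% of all probe sets, but 0 passed (smallest adjusted p = 0.68). The choice by a high Pparg+/- value enters these differences, so nothing is read from that count.

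Of the 38 probe sets that were lower in Pparg+/- cells, 33 were below 0 in fl/- cells (86.8%, against 47.3% of all), and 11 had an unadjusted p under 0.05 (28.9%, against 2.13%). With the spread taken from the 12 fl/- arrays alone 8 had one, against 1.97% of all. Among the 38, 10 were lower in all 6 pairs (1.28% of all), and 0 were free of overlap in both settings (0.125% of all). Their median was -0.24 in fl/- and -0.94 in Pparg+/- cells, and 35 of the 38 differences had an unadjusted p under 0.05 (4.85% of all), with 0 called (smallest adjusted p = 0.622). The choice enters these differences in the same way. Whether the higher and the lower probe sets differ in how much was left was not tested.

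The following genes of the 85 were named after their values were seen. Among those higher in both genotypes, Vsig8 was at 1.23 ± 0.34 (log2) in fl/- and 1.84 in Pparg+/- cells, Asb4, a suppressor of cytokine signalling box protein (1433919_at), at 0.72 ± 0.16 and 1.25, and Abhd3, a phospholipase, at 0.72 ± 0.18 and 1.46. Clec10a, a lectin of alternatively activated macrophages, was at 0.55 ± 0.14 and 0.92, and Slc37a2, a sugar phosphate transporter, at 0.42 ± 0.10 and 0.65. The Clec10a ratios without IL-4 were 0.228, 0.222 and 0.192 with vehicle and 0.406, 0.335 and 0.366 with RSG. Of the other higher probe sets, Frk, a tyrosine kinase, was at 0.80 ± 0.25 against 2.13, Lpcat3 at 0.25 ± 0.09 against 0.79, and Spic, a transcription factor of red pulp macrophages, at -0.20 ± 0.23 against 1.14. Frk with RSG and no IL-4 had 2.45 in mouse 4 but 1.01 and 0.954 in mice 5 and 6. Of the lower probe sets, Runx3, a transcription factor of the runt family, had the largest fitted change in fl/- cells, -0.61 ± 0.18 against -1.23. Its RSG cultures overlapped the vehicle cultures in both settings (0.524 to 0.832 against 0.752 to 1.22 without IL-4), although each of the 6 pairs was lower with RSG. Lgals2, galectin-2, was at 0.11 ± 0.51 against -2.63, and Cd14, the lipopolysaccharide co-receptor, at -0.23 ± 0.13 against -0.87.

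**Figure D3:**
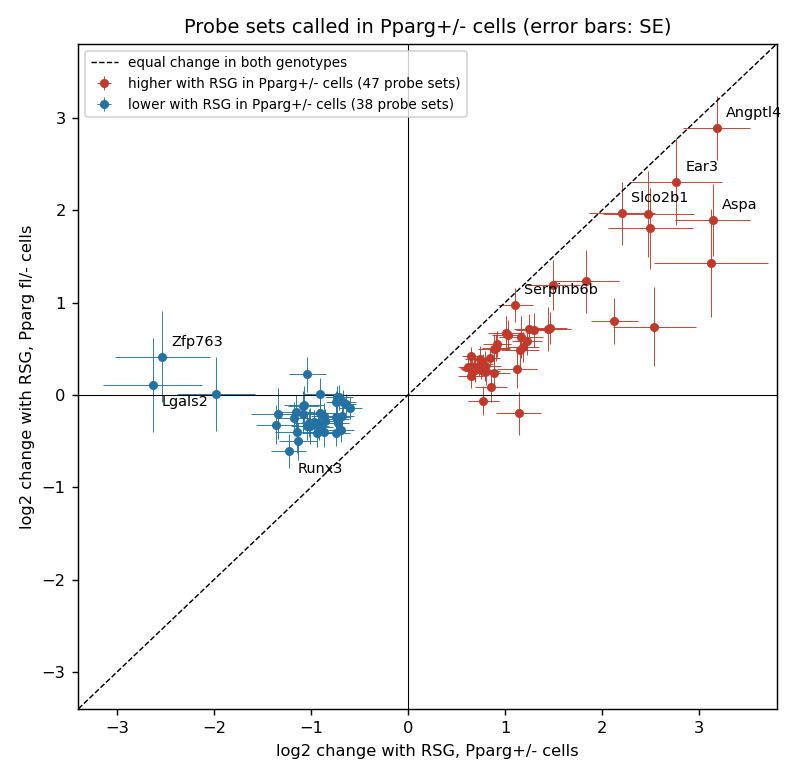
Log2 change with RSG in fl/- cells (vertical) against Pparg+/- cells (horizontal) for the 85 probe sets called in the latter, with SE bars; the dashed line marks equal change. Of the 47 red points 45 lie above 0, with all 47 under the line, and the 38 blue points lie nearer to 0 than the line, with a median of -0.24 in fl/- cells.

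The mice were not alike. Over the 47 probe sets the median RSG over vehicle change of single fl/- mice was 0.55, 0.29 and 0.36 (log2) for mice 4, 5 and 6 in control cultures and 1.02, 0.23 and 0.44 in IL-4 cultures. In Pparg+/- mice it ranged from 0.72 to 0.95 in control and from 1.08 to 1.11 in IL-4 cultures. Mouse 4 was thus the highest of the fl/- mice in both settings, and with IL-4 it came near the Pparg+/- mice. The pair of mouse 4 with IL-4 includes the vehicle array that stood apart and a shift of 0.16 over all probe sets. Without that array 36 of the 47 had an unadjusted p under 0.05, against 2.68% of all probe sets, with a median of 0.50. Without mouse 4 there were 22 of 47, against 3.12% of all probe sets, with a median of 0.33, and 44 of the 47 stayed above 0. Over the 38 lower probe sets the medians were -0.28, 0.02 and -0.10 in control and -0.34, -0.28 and -0.38 in IL-4 cultures.

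**Figure D4:**
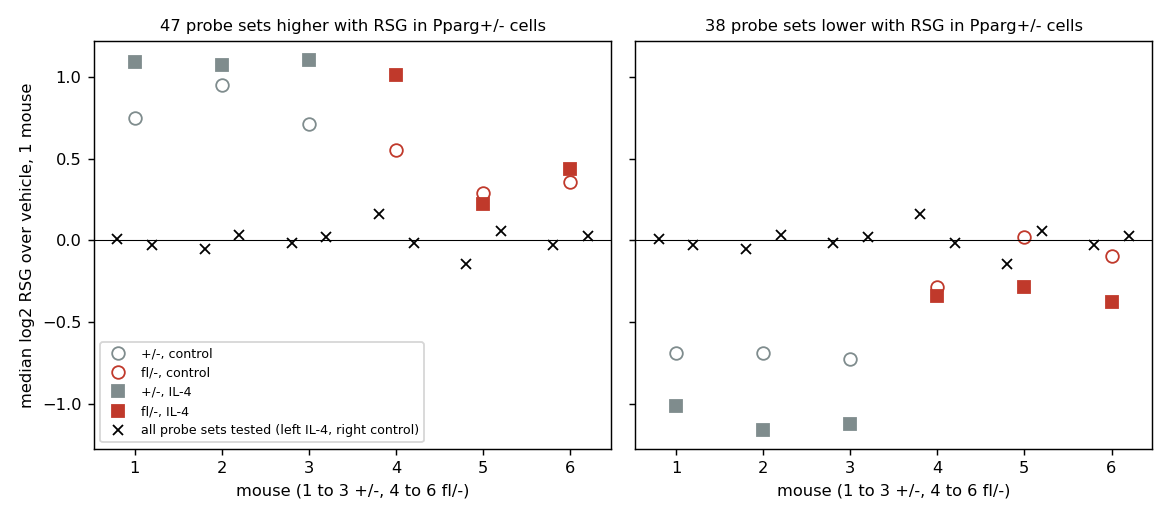
Median log2 RSG over vehicle of single mice over the 47 (left) and the 38 (right) probe sets called in Pparg+/- cells; open circles are control cultures, filled squares IL-4 cultures, red fl/- mice and grey Pparg+/- mice, and crosses the median of all probe sets tested. Mouse 4 is at 1.02 with IL-4, and mice 5 and 6 are at 0.23 and 0.44.

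Without IL-4, 0 probe sets of fl/- cells were called for RSG over vehicle (0.0%), and 1843 had an unadjusted p under 0.05, which is 4.25%. With IL-4 there were 4 (0.00923%), and 2107 had an unadjusted p under 0.05, or 4.86%. The 4 were Angptl4, at 4.32 ± 0.49 on the log2 scale (20.0-fold, adjusted p = 0.00147), Slco2b1 (1454777_at) at 1.85 (adjusted p = 0.0332, and 0.0520 with the block), Dach1 (1420695_at) at -1.97 (adjusted p = 0.0332, and 0.0781 with the block) and the unnamed 1431439_at at -4.91 (adjusted p = 0.00147). Dach1 encodes a transcriptional corepressor. Its ratios with IL-4 were 0.723, 0.855 and 1.13 with vehicle and 0.208, 0.328 and 0.173 with RSG, while those without IL-4 overlapped (1.44 to 1.79 against 1.46 to 1.66). The other Dach1 probe sets were at 0.71 and 1.11 with IL-4, so the fall of 1420695_at was not shared by them. The unnamed probe set had 2.41, 1.51 and 1.28 with IL-4 and vehicle and 0.0621, 0.0808 and 0.034 with IL-4 and RSG, without overlap.

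Whether the response differed between both settings was tested directly. The difference, IL-4 minus control, was called for 0 probe sets (0.0%), and 1768 had an unadjusted p under 0.05, or 4.08%. The unnamed 1431439_at had a difference of -4.52 (-6.21 to -2.84, unadjusted p = 2.25e-05, adjusted p = 0.494). Dach1 (1420695_at) had -1.97 (unadjusted p = 0.000178, adjusted p = 0.643). Both were named for their call with IL-4, a choice that enters this difference. Angptl4 had a difference of 2.87 (1.42 to 4.32, unadjusted p = 0.000569, adjusted p = 1.0), and in each of the 3 mice its change was larger with IL-4: 94.5-fold against 4.33-fold in mouse 4, 5.41 against 1.92 in mouse 5 and 15.7 against 2.48 in mouse 6. Slco2b1 (1454777_at) had 1.02 (unadjusted p = 0.0187), Plin2 0.43 (unadjusted p = 0.0321) and Fabp4 (1417023_a_at) 0.60 (unadjusted p = 0.0793), all with adjusted p = 1.0.

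The difference between genotypes of the averaged response was likewise called for 0 probe sets (0.0%), with 2102 at an unadjusted p under 0.05, or 4.85%. The number of arrays limits this comparison: its 95% interval lay inside 2-fold for 49.6% of the probe sets. A call in one genotype and none in the other is therefore no evidence of a difference between them for a single gene.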

How the data were processed

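Biotinylated cRNA from 24 mouse bone marrow-derived macrophage cultures was hybridized to Affymetrix Mouse Genome arrays. The deposited values are expression ratios. For these the authors computed GC-RMA signals (GeneSpring 7.3) and scaled them to each array's 50th percentile and to each probe set's median. A last division by vehicle controls, stated in the methods, was not seen in the values. The submitters' processing notes also name GCOS. Of 45101 probe sets, 64 controls were removed; a median ratio within 0.005 of 1 was found for 82.2%, and for 17.1% it was under 0.95, for which the divisor is not known.

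Ratios were floored at 0.01 (125 values) and log2 transformed. Probe sets at or above the array median on at least 3 arrays were kept, which left 43349 and removed 1688. Because the values are ratios, this does not select bright probe sets. All 24 arrays entered 1 fit of 8 group means in limma 3.58.1 (R 4.3.3; lmFit and eBayes with a mean-variance trend), and 6 comparisons were each adjusted by Benjamini-Hochberg over all probe sets. The fit was tested on simulated data. Symbols were taken from GEO's platform annotation: 34945 probe sets had 1 symbol, 932 several and 9160 none, and 34741 were matched to current genes by identifier. Tables and figures used Python 3.11.15, pandas 2.3.3 and matplotlib 3.10.9.

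Replicates were cultures of separate mice, and the labels give each culture the number of its mouse, which pairs the cultures of 1 animal. Deviations from the group means correlated by -0.057 to 0.044 within a mouse. The methods state no pairing, so the mouse as a replicate block was an alternative. Other alternatives changed the scaling, floor, filter, trend, samples, stratum and test. Members and gene lists were chosen with earlier results of these data known. Named genes were 12 fixed PPAR genes (Pparg, Fabp4, Angptl4, Pdk4, Plin2, Hilpda, Cd36, Scd1, Lpl, Cpt1a, Ppara and Ppard), genes called in the averaged response or in 1 setting, called members of the lists, and the genes of smallest p up to 10, said not to have passed where they did not. No promoter or protein sequence was used. Fold ranges in parentheses are 95% intervals, and errors after ± are standard errors.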

Additional observations from a re-analysis of the deposited data

Results flagged for a closer look

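Among 23 probe sets of the named genes, all 3 mice of one group moved against all 3 mice of another under the same RSG contrast in 4 cases. Between genotypes these were 2 of 23 without IL-4, against 3.88% of all 43349 probe sets, and 1 of 23 with it, against 2.38%. Between both settings of fl/- mice there was 1 of 23, against 2.48%. F13b and Spatc1l were named for their small p in fl/- cells, which favours such movement, so nothing is read from these counts. F13b (1419131_at) without IL-4 had a mean log2 change of 4.05 in fl/- mice and -0.92 in Pparg+/- mice, a difference of 4.96. The fl/- ratios were 0.117, 0.137 and 0.0951 with vehicle and 1.68, 2.22 and 1.84 with RSG. Spatc1l (1456866_x_at) without IL-4 had -2.78 in fl/- and 0.55 in Pparg+/- mice, a difference of -3.33. Ppara (1457721_at) with IL-4 had -0.72 in fl/- and 1.89 in Pparg+/- mice, a difference of -2.61. These differences within a single culture setting were not tested; averaged over both settings, none passed the adjustment (unadjusted p 0.000121, 0.00161 and 0.033). Within fl/- mice, Ppara changed by -0.72 with IL-4 and by 0.65 without it, a difference of -1.37 that had an unadjusted p of 0.0701 and an adjusted p of 1.0.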

How the results depend on the processing

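For the averaged response of fl/- cells, with 4 probe sets called, 6 were called with the mouse as a replicate block, 1 after quantile normalization, 1 with the stricter filter on 6 arrays, and 0 in a fit on the 12 fl/- arrays, without the IL-4 stratum or without the vehicle array of mouse 4 with IL-4. Leaving out 1 mouse gave 0 to 1. With 1 mouse left out Angptl4 had log2 changes of 2.16 to 3.49, and its adjusted p in the 12-array fit was 0.367. The methods' t-test gave 0 after adjustment and 958 before it. Without IL-4 (0 called) it gave 963 before adjustment, and leaving out 1 mouse gave 1 to 7. With IL-4 (4 called) it gave 0 and 1019, the 12-array fit 0, no mean-variance trend 7, the block 3, and leaving out 1 mouse 1 to 7. For IL-4 minus control it gave 1252 before adjustment, and leaving out 1 mouse gave 0 to 2. The difference between genotypes had 1397 before adjustment and 0 to 1 with 1 mouse left out. In Pparg+/- cells (85 called) the block gave 125, the 12-array fit 44, no stratum 12, the t-test 1380 before adjustment, and leaving out 1 mouse 0 to 3. By direction, the block gave 6 higher and 0 lower in the averaged response of fl/- cells (3 and 1 without it) and 65 and 60 in Pparg+/- cells (47 and 38).

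Of the 47 higher probe sets, 37 had an unadjusted p under 0.05 with the same sign, against 2.51% of all probe sets. In the 12-array fit 27 had one (2.06% of all), with no stratum 19 (1.71%), and without that vehicle array 36 (2.68%). With 1 mouse left out 22 to 35 had one (2.7% to 3.12% of all), the 22 without mouse 4. Of the 38 lower, 11 had one (2.13% of all), 8 in the 12-array fit (1.97%), 2 with no stratum (1.33%) and 16 without that array (3.72%). With 1 mouse left out 3 to 10 of the 38 had one (2.02% to 3.96% of all), the 3 without mouse 6. These settings were added after seeing the data. Among named genes, Pparg turned to -0.004 with array medians centred, to values from -0.011 to 0.053 with 1 mouse left out and to -0.104 without the array of mouse 4. Pdk4 ranged from -0.323 to 0.83 with 1 mouse left out and turned to -0.283 without that array, Scd1 ranged from -0.279 to 0.271 with 1 mouse left out, and Ppara was at -0.062 without mouse 4 and at 0.022 without that array. Ear3 passed with no mean-variance trend (adjusted p = 0.0205) and fell to 1.19 with a floor of 0.05 (adjusted p = 0.913). The cause of these changes was not tested, except that fewer arrays entered where mice or arrays were left out.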
